A study of Mus musculus with 31 samples.

Results

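RM-9 tumors taken 24 h after radiation (RT) were compared with RM-9 tumors taken 12 h after it, both irradiated. The mice were chosen by the time and tumor named in the sample titles, which gave 3 RT 24h and 4 RT 12h mice, 7 of the 31 mRNA-Seq libraries in the series. RM-9 is a mouse prostate cancer cell line. It was injected under the skin of the right hind leg of male wild-type C57BL/6 mice (C57BL/6J in the study's methods), bought at 6 to 7 weeks of age, and tumors of about 8 mm received a single local dose of 15 Gy. Each library is 1 tumor of 1 mouse, so the difference between the times is between animals and not within them. The 4 unirradiated RM-9 control mice, the 4 RM-9 mice at 3 h and the MC-38 colon tumors at 12 h and 24 h (4 mice each) appear only as reference levels. Control mice carried the 3 h time label, so no unirradiated tumor of the same age stood beside either time. The comparison asks how recovery from the early damage and a later inflammatory change appear in the tumor.

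Ionizing radiation breaks DNA, and the p53 and checkpoint kinases then hold cells before replication and before mitosis. Cells released from a G2 arrest enter mitosis together, and the transcripts of mitotic regulators rise and fall with that passage. DNA or RNA sensed in the cytosol can start type I interferon production, and interferon receptors turn on a set of antiviral genes in the cells that carry them. In parallel, interleukin-1 and TNF act through NF-kB on chemokines such as Ccl2, a ligand that calls in monocytes, and the Cxcr2 ligands, which call in neutrophils.

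Levels are in TPM, a length-scaled share of each library's transcripts, rescaled here to a common total without mitochondrially encoded genes. Those genes held 52.4 to 57.2% of the deposited TPM in the RT 12h libraries and 47.3 to 54.3% in the RT 24h libraries. Depth, derived from the deposited FPKM and coverage, was 23.6 to 26.2 M reads of 75 bases. Markers of the tumor line were checked first. Krt8, an epithelial keratin, lay between 1081 and 2030 TPM in the 7 mice, and Hras and Myc, the oncogenes with which the line was transformed, between 619 and 1393 and between 413 and 660 TPM. The prostate gene Pbsn was listed at 0 in all 7, and Epcam lay between 1.34 and 2.95 TPM.

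One source of variation must stand before the results. Skeletal muscle transcripts, from a tissue that borders a tumor in the hind leg, differed by library. Over the 22 muscle markers the summed level was 40.1, 98.2, 2712 and 278 TPM in RT 12h mice 1 to 4 and 6807, 642 and 1674 TPM in RT 24h mice 1 to 3, against 693 to 6407 TPM in control mice. Of 21 markers tested, 20 were higher at 24 h, with a median log2 difference of 2.82, and Ckm, the muscle creatine kinase, was listed at 0 in RT 12h mouse 1. So 3 of the 4 RT 12h mice held less muscle RNA than any RT 24h mouse, and RT 12h mouse 3 held as much as the control mice. Results below are given with this in view. A fit with the mean level of the muscle markers as a covariate, added after the values had been seen, is quoted where it changes a count. In bulk tissue, fewer cells of a type and less RNA per cell cannot be told apart.

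Between 12 h and 24 h, no gene passed the adjusted threshold. Log2(TPM + 0.5) was fitted with limma over the 15 RM-9 mice in 4 groups, and fold changes are on that scale, which understates the change of genes near 0 TPM. With Benjamini-Hochberg adjustment over 15329 genes, 0 genes (0%) had an adjusted p under 0.05, and the smallest adjusted p was 0.187. At an unadjusted p under 0.05, 1439 genes (9.39%) were higher and 311 (2.03%) lower at 24 h. Of all genes tested, 1093 (7.13%) had every RT 24h mouse above every RT 12h mouse and 340 (2.22%) had every one below. The median gene was 0.05 higher on the log2 scale. Genes higher at 24 h made up 82.2% of those under the unadjusted threshold, 97.2% with TPM as deposited, 66.6% without the chromosome 1 copies of mitochondrial genes and 57.3% after median-ratio scaling, so the balance of directions depends on how libraries are scaled. The differences below are therefore descriptions of 7 mice, and none of them passed the adjusted test. "Higher" and "lower" refer to the values of these mice. Some genes below were named for a small p among those without overlap. For them, the separation and the exact permutation p follow in part from that choice and add no support. Counts in a list are to be read against the shares of all genes. These are 9.39% higher and 2.03% lower at the unadjusted threshold, and 7.13% and 2.22% without overlap.

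Of the 25 process lists, interferon-stimulated genes had the median farthest from that of all genes. All 40 listed members were tested and 40 were higher at 24 h, by 0.43 to 1.51 on the log2 scale with a median of 0.95, against 0.05 for all genes. At an unadjusted p under 0.05, 30 of 40 were higher, where 9.39% of all genes were. All 40 were higher under each of the 18 alternatives tried. In 12 of the 40, every RT 24h mouse lay above every RT 12h mouse, as in 7.13% of all genes. The list had been below control at 12 h, with a median of -0.78, and stood at 0.19 relative to control at 24 h. These comparisons share the RT 12h or RT 24h mice with the 24 h to 12 h comparison, so they are not independent of it.

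A regulator of this pathway, itself a member of the list and already counted in it, was higher on average. Irf7, the factor that amplifies interferon production, had 28.2, 23.5, 55.6 and 20.7 TPM at 12 h and 102, 45.0 and 42.1 TPM at 24 h, and the groups overlapped. RT 12h mouse 3 was above 2 of the 3 RT 24h mice. Irf7 was picked after its values had been seen, for its place in the pathway.

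Among the targets, Oasl1, an antiviral protein of the oligoadenylate synthetase family, had the smallest p. It stood at 4.52, 6.35, 10.5 and 4.51 TPM at 12 h and at 20.3, 14.2 and 11.7 TPM at 24 h, a log2 difference of 1.23 ± 0.32 (SE; adjusted p = 0.22, exact permutation p = 0.0571). Every RT 24h mouse was above every RT 12h mouse, and RT 12h mouse 3 came closest to them. Ifit3, which binds viral RNA complexes, stood at 9.82, 8.45, 24.0 and 7.91 TPM at 12 h and at 58.6, 20.9 and 29.3 TPM at 24 h, a 2.85-fold difference. Here RT 12h mouse 3 overlapped the RT 24h mice. Ifit3 has a near-identical neighbour, Ifit3b, and reads could have been split between them. Cmpk2, a mitochondrial nucleotide kinase, was 2.53 TPM ± 1.38 (SD, n = 4) at 12 h and 7.10 TPM ± 3.67 (SD, n = 3) at 24 h, and its groups did not overlap.

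Cxcl10, a chemokine that is itself induced by interferon and calls in T cells through Cxcr3, stood at 24.5, 16.6, 44.5 and 19.2 TPM at 12 h and at 94.6, 50.8 and 48.2 TPM at 24 h. Its log2 difference was 1.32 ± 0.50 (SE; adjusted p = 0.36), and RT 12h mouse 3 was again the highest of its group. As a reference, control mice had 41.9 to 71.0 TPM of Cxcl10, so 2 of the 3 24 h mice were within the control range and 1 above it, and 3 of the 4 12 h mice below it.

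The promoters of these 2 genes are shown because they carry the interferon response element, the site through which interferon acts on its targets. The sequences are upstream bases in RefSeq on mouse build GRCm38.p6, 5′ to 3′ on the strand of the gene, and capitals mark the motif searched for, GAAA, any 2 bases and GAAA again, or the same on the other strand, TTTC, any 2 bases and TTTC. For Ifit3 the stretch is chr19:34583358-34583507 on the plus strand, from 171 to 22 bases before the start site. For Cxcl10 it is chr5:92348968-92349117 on the minus strand, from 228 to 79 bases before the start site.
Ifit3: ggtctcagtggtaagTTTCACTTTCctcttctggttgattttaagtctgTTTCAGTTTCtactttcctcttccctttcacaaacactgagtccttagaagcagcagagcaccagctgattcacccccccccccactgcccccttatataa
Cxcl10: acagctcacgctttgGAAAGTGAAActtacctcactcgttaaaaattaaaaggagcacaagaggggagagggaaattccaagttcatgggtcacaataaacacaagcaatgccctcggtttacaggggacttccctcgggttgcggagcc
The element begins 156 and 122 bases before the start of Ifit3 and 213 bases before that of Cxcl10. Within 250 upstream bases on either strand, 16 of the 30 interferon-stimulated genes found in the promoter table held it (53.3%), against 3.46% of all 27025 genes in the table and 2.98% of its 32851 promoters. A match of letters is a description and does not show binding.

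The interferon-stimulated genes varied with the same libraries as the muscle markers. Over the list, the mean log2 distance from the control mean was -0.89, -0.93, -0.09 and -1.16 in RT 12h mice 1 to 4 and 0.76, -0.18 and -0.04 in RT 24h mice 1 to 3. RT 12h mouse 3, which held the most muscle RNA of its group, was also the 1 RT 12h mouse at the control level, and RT 24h mouse 1, with the most muscle RNA of all 7, was the highest. With the muscle level as a covariate, 40 of 40 were still higher, the median was 0.55 and 5 of 40 had an unadjusted p under 0.05. Without RT 24h mouse 1, the median was 0.66 and 5 of 40 were under that threshold, and without RT 12h mouse 3, 1.17 and 36. The muscle markers' own part in the difference was not tested.

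**Figure D1:**
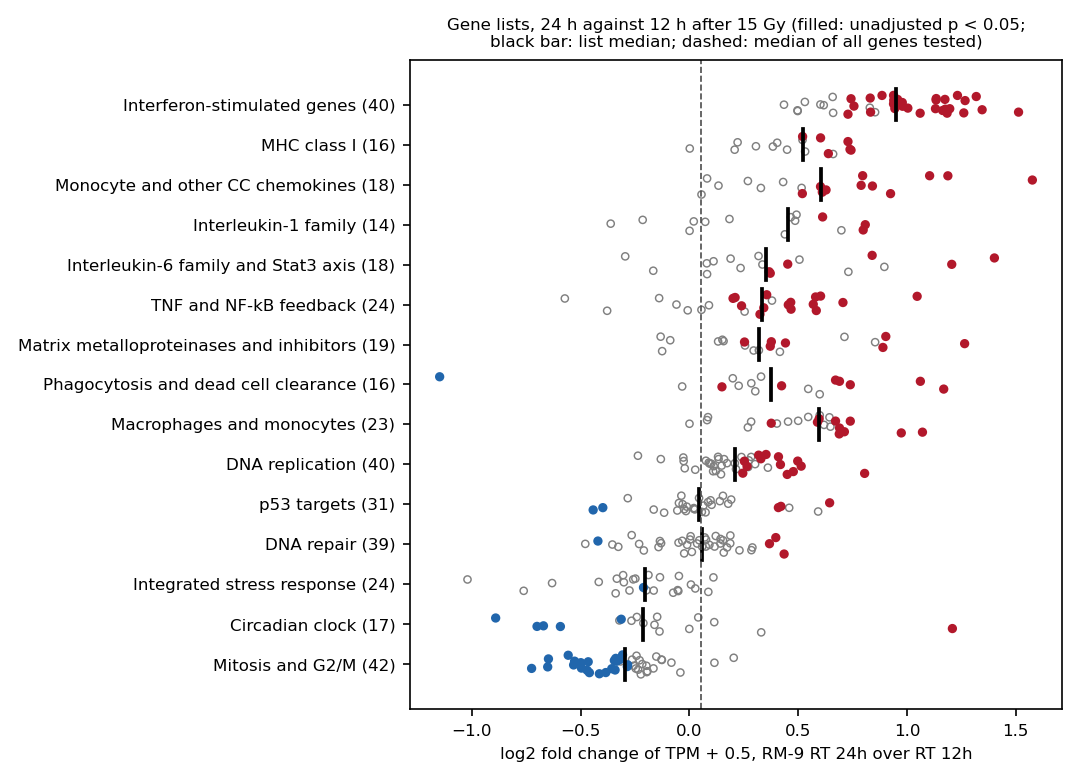
Log2 fold change of TPM + 0.5 between RT 24h and RT 12h (x axis) for the tested members of 15 gene lists (y axis, number tested in brackets). Each point is 1 gene, filled where the unadjusted limma p is under 0.05 (red higher, blue lower), black bars are list medians and the dashed line is the median of all 15329 genes. Interferon-stimulated genes lie at a median of 0.95 and mitotic genes at -0.30.

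Genes that load and present antigen on MHC class I were also higher. Tap1, Psmb8 and Psmb9 are in the interferon-stimulated list as well, so these lists are not separate findings. All 16 listed genes were tested and 16 were higher, with a median of 0.52, and 6 had an unadjusted p under 0.05. Psmb8, an interferon-inducible subunit of the immunoproteasome, stood at 19.8, 11.4, 17.0 and 10.8 TPM at 12 h and at 29.6, 21.7 and 22.0 TPM at 24 h. The lowest 24 h mouse was above the highest 12 h mouse. Psmb10, another immunoproteasome subunit, had 34.7, 25.2, 34.4 and 26.6 TPM at 12 h and 53.6, 44.1 and 43.5 TPM at 24 h (exact permutation p = 0.0286, the smallest that 35 assignments of 3 and 4 mice allow). H2-M3, a nonclassical class I heavy chain, had 4.53 to 6.21 TPM at 12 h and 6.28 to 11.1 TPM at 24 h, without overlap. The class I genes are near-identical to each other in part, so reads may have been split among them. Without RT 24h mouse 1, and also with the muscle covariate, 0 of 16 had an unadjusted p under 0.05, and without RT 12h mouse 2, 3 did. MHC class II genes were higher in 9 of 9 with a median of 0.17, and 0 of 9 had an unadjusted p under 0.05. Their median was -0.90 relative to control at 12 h and -0.44 at 24 h, and Ctss, a protease that processes antigen, had 161 to 288 TPM at 12 h and 251 to 371 TPM at 24 h.

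Chemokines that call in monocytes were higher at 24 h. Of 18 CC chemokines and receptors tested, 18 were higher, with a median of 0.61, and 11 had an unadjusted p under 0.05. Ccl2, the main ligand of Ccr2, stood at 171, 200, 196 and 170 TPM at 12 h and at 329, 255 and 274 TPM at 24 h, a 1.55-fold difference (log2 0.63 ± 0.18 SE; adjusted p = 0.25). The groups did not overlap, and control mice had 134 to 185 TPM. Ccl7, another Ccr2 ligand, was 64.2 TPM ± 12.2 (SD, n = 4) at 12 h and 116 TPM ± 27.8 (SD, n = 3) at 24 h, also without overlap. Ccl4, a chemokine that macrophages make, had 4.62 to 7.30 TPM at 12 h and 6.63 to 12.0 TPM at 24 h, with RT 12h mouse 4 inside the 24 h range. Ccl5, which draws T cells and macrophages, overlapped widely, at 9.09 to 33.4 TPM against 15.6 to 24.6 TPM. Without RT 24h mouse 1 or RT 12h mouse 2, 3 of the 18 had an unadjusted p under 0.05, and 6 with the muscle covariate.

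Ligands of Cxcr2, the receptor that draws neutrophils into tissue, had medians above control at both times and differed less between them. Of 6 genes tested, 1 had an unadjusted p under 0.05, and the list median was 0.34. Relative to control it was 0.99 at 12 h and 1.18 at 24 h, and limma gave no adjusted call among these genes. Cxcl3 stood at 2.20, 7.44, 6.36 and 3.77 TPM at 12 h and at 14.5, 7.19 and 11.3 TPM at 24 h (log2 1.15 ± 0.52 SE; exact permutation p = 0.114), and RT 24h mouse 2 lay within the 12 h range. Ppbp, which platelets also store, had 4.91, 7.69, 7.85 and 6.03 TPM at 12 h and 12.4, 8.97 and 13.9 TPM at 24 h, without overlap. For Cxcl2 the values were 2.10, 5.67, 3.33 and 3.14 TPM at 12 h and 5.26, 2.74 and 4.54 TPM at 24 h, and for Cxcl1 2.97, 8.75, 2.41 and 2.36 against 4.35, 2.38 and 3.36 TPM. Both overlapped, and RT 12h mouse 2 held the highest level of each. Cxcl5, an epithelial ligand, had 2.62 to 12.2 TPM at 12 h and 4.91 to 7.03 TPM at 24 h, a log2 difference of 0.05 with a 95% interval of -0.72 to 0.81, and the difference was below 0 after median-ratio scaling. The receptor Cxcr2 itself lay at 0.50 to 2.15 TPM at 12 h and 1.07 to 3.00 TPM at 24 h.

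Cytokine genes upstream of these chemokines gave a mixed picture. In the interleukin-1 family, 12 of 14 were higher, with a median of 0.45, and 3 had an unadjusted p under 0.05. Il1rn, the receptor antagonist that blocks interleukin-1, showed the clearest separation at 23.3, 21.4, 24.5 and 22.9 TPM at 12 h and 50.8, 32.3 and 40.9 TPM at 24 h. That is a 1.75-fold difference (log2 0.81 ± 0.17 SE; adjusted p = 0.19, exact permutation p = 0.0286), and each 24 h mouse was above each 12 h mouse and each control mouse (17.8 to 31.3 TPM). Il18, which is activated by caspase-1, had 2.75 to 4.52 TPM at 12 h and 4.99 to 8.78 TPM at 24 h. Il1b, the main secreted agonist, stood at 41.2, 52.8, 39.8 and 27.5 TPM at 12 h and at 82.9, 36.9 and 52.7 TPM at 24 h, and RT 24h mouse 1 alone lay above the 12 h range. The count of 3 was 6 with TPM as deposited, 5 without RT 24h mouse 2 and 1 with the muscle covariate or without RT 24h mouse 1.

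NF-kB feedback genes followed the same order. Of 24 tested, 19 were higher with a median of 0.33, and 15 had an unadjusted p under 0.05. Nfkbie, an inhibitor of NF-kB that NF-kB itself induces, had 6.13, 6.81, 7.32 and 5.68 TPM at 12 h and 11.2, 8.28 and 11.02 TPM at 24 h (log2 0.60 ± 0.14 SE; adjusted p = 0.19). Traf1, an adaptor of TNF receptors, had 6.60 to 9.25 TPM against 10.2 to 14.5 TPM, and Tnip1, a partner of the A20 deubiquitinase, 14.3 to 17.5 against 17.7 to 26.2 TPM. None of these 3 overlapped between the times. Leaving out RT 24h mouse 1 gave 8 genes under the unadjusted threshold, leaving out RT 12h mouse 4 gave 9, and the muscle covariate gave 7. In the interleukin-6 and Stat3 list, 16 of 18 were higher with a median of 0.35, and 6 had an unadjusted p under 0.05 (11 with TPM as deposited, 3 with the replicate block and 2 with the muscle covariate). Pim1, a kinase induced by Stat3, had 12.4 to 15.5 TPM at 12 h and 18.5 to 22.0 TPM at 24 h, and Socs1, a feedback inhibitor of cytokine receptors, 5.25 to 11.5 against 12.98 to 16.9 TPM. Timp1, an inhibitor of matrix proteases, was 847 TPM ± 38.9 (SD, n = 4) at 12 h and 1096 TPM ± 44.7 (SD, n = 3) at 24 h.

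**Figure D2:**
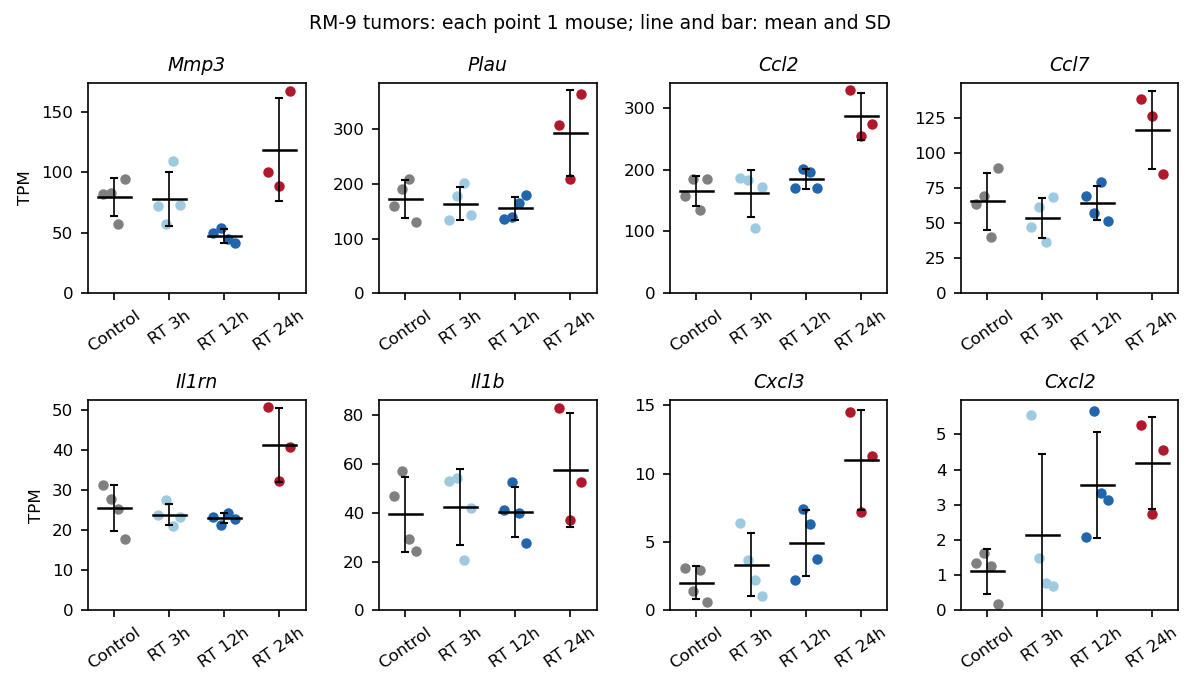
TPM (y axis, from 0) of 8 inflammatory genes in RM-9 control, RT 3h, RT 12h and RT 24h mice (x axis). Each point is 1 mouse, and the line and bar are the mean and SD. Mmp3, Plau, Ccl2, Ccl7 and Il1rn separate the 12 h from the 24 h mice, while Il1b, Cxcl3 and Cxcl2 overlap.

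Proteases that cut the extracellular matrix were higher at 24 h. Mmp3, stromelysin and 1 of the 10 higher genes with the smallest p, stood at 49.4, 54.3, 44.5 and 41.4 TPM at 12 h and at 99.8, 88.6 and 167 TPM at 24 h, a 2.40-fold difference (log2 1.27 ± 0.23 SE; adjusted p = 0.19, exact permutation p = 0.0286). The 12 h mice lay below the control mice (57.6 to 94.6 TPM), and 2 of the 3 at 24 h lay above them. Plau, urokinase, which activates plasminogen, had 136, 140, 164 and 179 TPM at 12 h and 306, 209 and 364 TPM at 24 h, a 1.85-fold difference without overlap. Mmp10, another stromelysin, was 19.93 TPM ± 3.45 (SD, n = 4) at 12 h and 39.4 TPM ± 16.2 (SD, n = 3) at 24 h. In this list of metalloproteinases and inhibitors, 16 of 19 were higher, with a median of 0.32, and 7 had an unadjusted p under 0.05, 4 after median-ratio scaling or without RT 24h mouse 3. Collagens did not follow. Their median was 0.03 over 25 genes, and Col1a1 had 228 to 474 TPM at 12 h and 226 to 370 TPM at 24 h. Lox, which cross-links collagen, had 11.4 to 20.5 TPM against 23.4 to 33.3 TPM, and Tnc, a matricellular glycoprotein, 55.2 to 77.7 against 82.7 to 134 TPM, both without overlap.

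Ptx3 and C3 were named for their small p among genes without overlap and belong to innate immunity. Their separation was thus a condition of the choice. Ptx3, a long pentraxin that marks microbes and dying cells for uptake, stood at 0.54, 0.24, 2.37 and 0.37 TPM at 12 h and at 9.84, 4.36 and 4.21 TPM at 24 h (log2 2.39 ± 0.43 SE; adjusted p = 0.19, exact permutation p = 0.0571). All RT 24h mice were above all RT 12h mice, of which mouse 3 was the highest by far, and above all control mice (0.95 to 2.40 TPM). Without RT 12h mouse 3, the difference was 2.82 and its adjusted p 0.0246, the 1 gene called in that fit. C3, the central component of complement, had 5.31, 3.77, 7.13 and 2.07 TPM at 12 h and 18.5, 13.3 and 13.3 TPM at 24 h, a 3.26-fold difference (log2 1.71 ± 0.33 SE). Control mice had 6.89 to 16.1 TPM of C3, so the 12 h mice were low and the 24 h mice close to control.

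**Figure D3:**
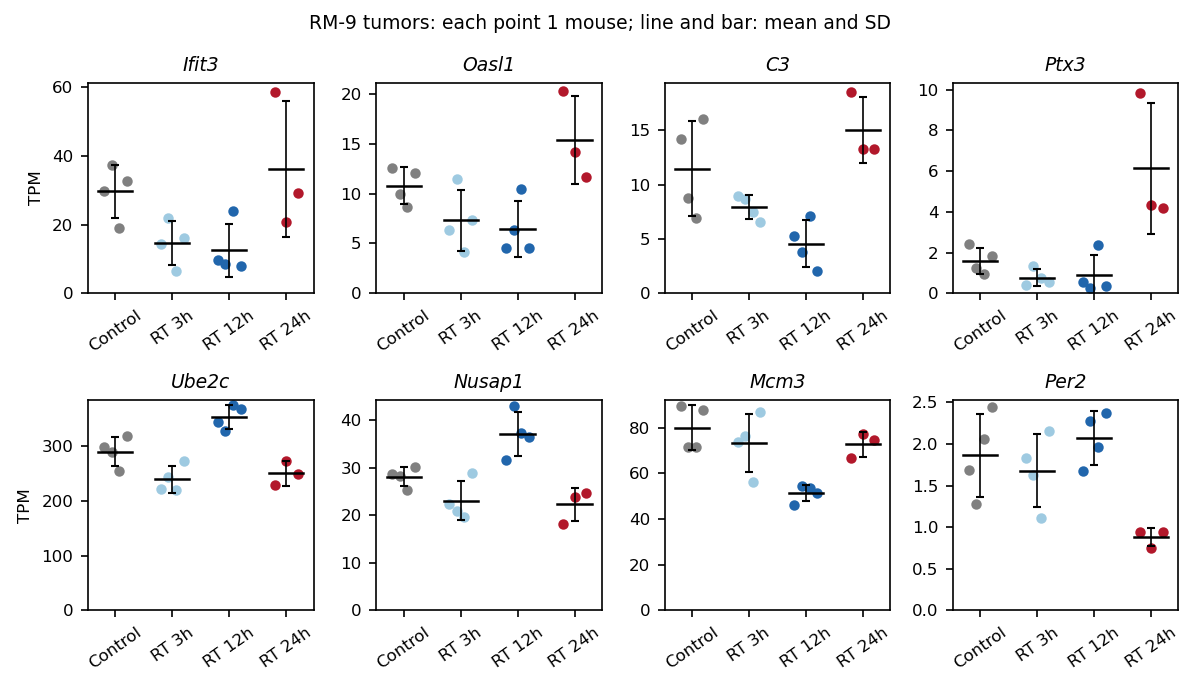
TPM (y axis, from 0) of 8 genes in RM-9 control, RT 3h, RT 12h and RT 24h mice (x axis). Each point is 1 mouse, and the line and bar are the mean and SD. Every RT 24h mouse lies above every RT 12h mouse for C3, Ptx3 and Mcm3, and below every one for Ube2c, Nusap1 and Per2. Ifit3 overlaps in 1 RT 12h mouse.

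Macrophage markers were higher at 24 h in 23 of 23 genes, with a median of 0.60, and 10 had an unadjusted p under 0.05. Their summed level was 2650, 1276, 2613 and 2167 TPM in RT 12h mice 1 to 4 and 4026, 2575 and 3061 TPM in RT 24h mice 1 to 3, so the groups overlapped. Control mice had 2251 to 3622 TPM. Ccr2 and Cx3cr1 are in both this list and that of CC chemokines and receptors. Mrc1, the mannose receptor of tissue macrophages, gave the smallest p of all genes named here, at 15.6, 15.7, 18.5 and 15.2 TPM at 12 h and 27.3, 24.3 and 22.4 TPM at 24 h (log2 0.59 ± 0.10 SE; adjusted p = 0.19). Its 12 h mice lay below the control mice (19.8 to 24.8 TPM) and its 24 h mice around them. Cd209f, a lectin of the same kind of cell, had 1.12, 0.66, 1.66 and 0.44 TPM at 12 h and 6.21, 3.13 and 5.37 TPM at 24 h, a 3.74-fold difference. Cd209f was named for a small p among genes without overlap, so its separation is no result. C1qa, the first component of the classical complement pathway, had 265, 113, 224 and 193 TPM at 12 h and 398, 264 and 303 TPM at 24 h, and 1 mouse at 12 h lay within the 24 h range. With the muscle covariate, the macrophage median was 0.33, 19 of 23 were higher and 3 had an unadjusted p under 0.05. Leaving out RT 24h mouse 1 or RT 12h mouse 2 gave 4 such genes, and TPM as deposited gave 18.

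Genes for the uptake of dead cells showed a median of 0.38, with 14 of 16 higher. C1qa, C1qb, C1qc, Apoe and Trem2 are in the macrophage list as well, so the lists count the same genes in part. At an unadjusted p under 0.05, 7 were higher and 1 lower. The lower gene was Gpnmb, a glycoprotein of lysosomes, with 33.7 to 105 TPM at 12 h and 17.9 to 46.2 TPM at 24 h, and it was picked after its values had been seen. Msr1, a scavenger receptor, had 19.99 to 23.6 TPM against 22.1 to 38.8 TPM.

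Markers of other cells differed less or unevenly. Neutrophil markers were higher in 16 of 17, with a median of 0.48. Under the unadjusted threshold 3 of 17 were higher, where 9.39% of all genes were. Their summed level was 59.9 to 96.5 TPM at 12 h and 75.5 to 163 TPM at 24 h. S100a9, a calcium-binding protein of neutrophils, had 4.29 to 22.4 TPM at 12 h and 11.1 to 27.9 TPM at 24 h. T cell markers had a median of 0.31, with 0 of 13 under the unadjusted threshold, and relative to control their medians were -0.80 at 12 h and -0.46 at 24 h. Trac, the constant chain of the T cell receptor, had 2.09 to 4.05 TPM at 12 h, 3.11 to 3.69 TPM at 24 h and 5.34 to 8.61 TPM in control mice. Of 9 dendritic cell markers tested, 7 were higher and 2 lower, with a median of 0.34 and 3 under the unadjusted threshold. Irf8, a factor of their development, had 11.3 to 16.4 against 16.6 to 28.3 TPM and Fscn1, an actin bundler, 76.7 to 82.6 against 93.9 to 132 TPM, both without overlap. Flt3, the receptor for a growth factor of these cells, had 10.9 to 15.5 against 10.1 to 13.8 TPM, a log2 difference of -0.21. Endothelial markers lay at -0.00 and fibroblast and pericyte markers at 0.03. Mast cell markers had a median of 1.40 with 0 of 7 under the unadjusted threshold. Tpsb2, a mast cell tryptase, had 0.41, 11.4, 8.08 and 4.01 TPM at 12 h and 12.99, 19 and 12.04 TPM at 24 h, without overlap. Pf4, a platelet chemokine that macrophages also make, stood at 59.7 to 110 TPM against 126 to 164 TPM.

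**Figure D4:**
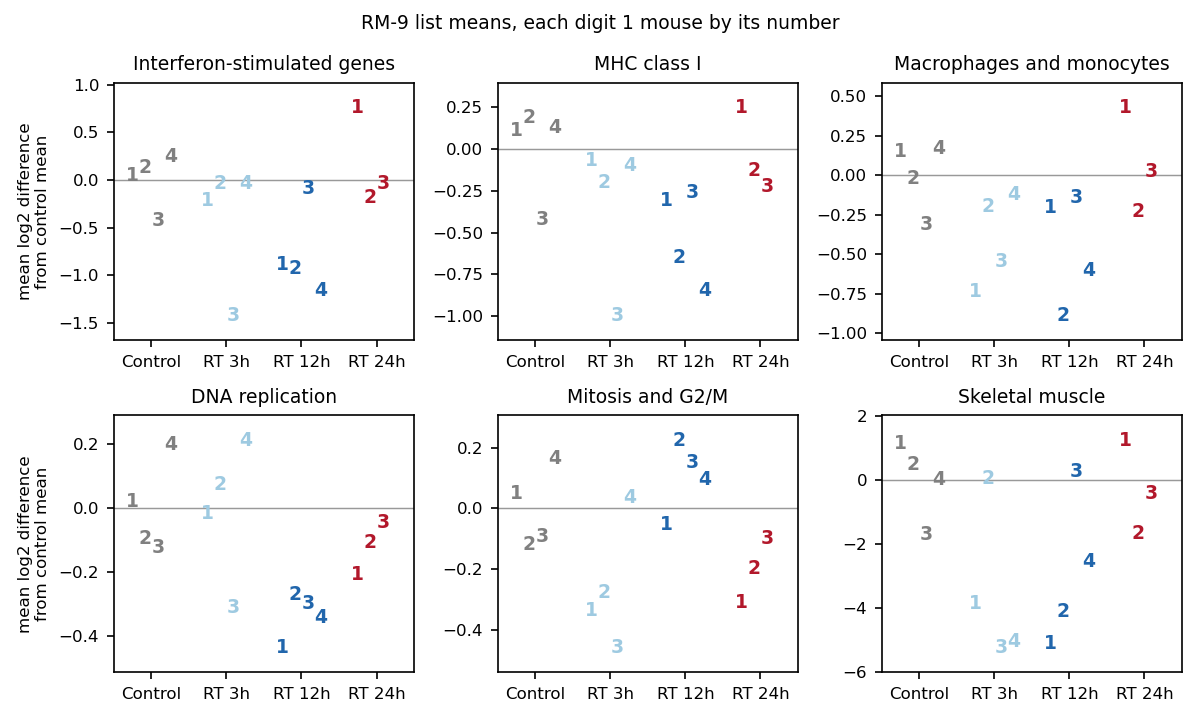
Mean log2 difference from the control mean (y axis) over the tested genes of 6 lists in the 15 RM-9 mice, by group (x axis). Each digit is 1 mouse, plotted by its number. RT 12h mouse 3 sits near control for interferon-stimulated genes (-0.09) and skeletal muscle (0.27), and the 3 RT 24h mice lie below the 4 RT 12h mice for mitotic genes and above them for DNA replication genes.

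Mitotic genes went the other way. Of 42 tested, 40 were lower at 24 h, with a median of -0.30, and 22 had an unadjusted p under 0.05, where 2.03% of all genes did. In 17 of the 42 every RT 24h mouse lay below every RT 12h mouse, as in 2.22% of all genes. The list stood slightly above control at 12 h (median 0.08) and below it at 24 h (-0.22). List means by mouse were -0.05, 0.23, 0.15 and 0.10 at 12 h and -0.31, -0.20 and -0.10 at 24 h, so the groups did not overlap. RT 12h mouse 3, which stood apart from its group for muscle and interferon genes, lay within it here. With the muscle covariate, 18 of 42 were under the unadjusted threshold and the median was -0.29. The count was 8 of 42 with TPM as deposited, 31 after median-ratio scaling and 13 without RT 24h mouse 1, and at most 4 of 42 were higher under any alternative.

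Nusap1, which bundles spindle microtubules, stood at 31.7, 43.0, 37.3 and 36.5 TPM at 12 h and at 18.3, 24.0 and 24.8 TPM at 24 h, 1.65-fold lower (log2 -0.73 ± 0.14 SE; adjusted p = 0.19, exact permutation p = 0.0286). Ube2c, the ubiquitin-conjugating enzyme of the anaphase-promoting complex, had 343, 327, 375 and 367 TPM at 12 h and 229, 273 and 248 TPM at 24 h (log2 -0.50 ± 0.09 SE). Its 12 h mice were above every control mouse (255 to 317 TPM), and 2 of the 3 at 24 h were below every control mouse. Prc1, which cross-links microtubules of the midzone, had 72.1, 87.6, 81.6 and 78.2 TPM at 12 h and 53.03, 55.4 and 60.9 TPM at 24 h. Troap, a spindle protein, and Parpbp, a partner of PARP1, are in no list and differed by -0.48 and -0.61 on the log2 scale. Both were named for a small p among genes without overlap, so their separation is no result. The 2 mitotic genes with a higher mean were Cdk1, the mitotic kinase, by 0.12, and Pttg1, securin, by 0.20, and Mki67, the proliferation antigen, differed by -0.08. These 3 were picked after their values had been seen.

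The promoters of Ube2c and Prc1 are shown for the CHR element, TTTGAA or its reverse TTCAAA in capitals, through which the DREAM and MuvB complexes time mitotic genes. The stretches are chr2:164769779-164769905 and chr7:80294326-80294451 on build GRCm38.p6, both on the plus strand, 127 and 126 bases that end 24 and 25 bases before the RefSeq start site.
Ube2c: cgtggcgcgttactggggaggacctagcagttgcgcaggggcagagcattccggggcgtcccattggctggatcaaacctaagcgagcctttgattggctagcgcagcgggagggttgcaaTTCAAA
Prc1: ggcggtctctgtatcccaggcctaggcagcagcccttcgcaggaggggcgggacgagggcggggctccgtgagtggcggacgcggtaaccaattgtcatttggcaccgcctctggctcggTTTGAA
The element starts 29 and 30 bases before the start site. Of 35 mitotic genes in the promoter table, 11 held it within 250 upstream bases on either strand (31.4%), against 5 of 33 DNA replication genes (15.2%), 18.3% of all genes and 15.99% of all promoters. These 6 letters are common by chance, and no match says only that they are absent from this window.

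DNA replication genes were higher at 24 h, opposite to the mitotic genes. Of 40 tested, 35 were higher with a median of 0.21. Of these, 13 had an unadjusted p under 0.05, where 9.39% of all genes were higher. In 17 every RT 24h mouse lay above every RT 12h mouse, as in 7.13% of all genes. List means were -0.44, -0.27, -0.30 and -0.34 in the RT 12h mice and -0.21, -0.11 and -0.05 in the RT 24h mice. The genes had been below control at 12 h (median -0.31), where 4 passed the adjusted threshold, and were at -0.14 at 24 h. Those 4 calls rest on a fit in which 0 genes of all tested passed with the muscle covariate, and 0, 0, 2 and 0 genes without RT 12h mice 1 to 4. Mcm2, a subunit of the replicative helicase, had 32.9, 38.3, 39.0 and 35.3 TPM at 12 h and 50.9, 51.0 and 54.3 TPM at 24 h (log2 0.51 ± 0.12 SE; adjusted p = 0.19, exact permutation p = 0.0286). Mcm3, another subunit, had 46.4, 54.4, 53.6 and 51.3 TPM at 12 h and 66.7, 77.1 and 74.7 TPM at 24 h. Control mice had 44.2 to 62.6 TPM of Mcm2 and 71.4 to 89.3 TPM of Mcm3, so both genes were low at 12 h and close to control at 24 h. Ccne1, cyclin E, which opens S phase, had 25.8 to 35.2 TPM against 35.8 to 48.6 TPM. Ung, the uracil glycosylase that follows the replication fork, had 5.61, 6.74, 8.21 and 6.23 TPM at 12 h and 9.75, 14.4 and 13.6 TPM at 24 h (log2 0.86 ± 0.16 SE), with control mice at 12.8 to 18.9 TPM. With the muscle covariate, 6 of the 40 were under the unadjusted threshold, and without RT 24h mouse 3, 8 were.

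DNA repair genes had a median near that of all genes, at 0.06 over 39 genes. In 4 of the 39 every RT 24h mouse lay below every RT 12h mouse, as in 2.22% of all genes. In 1 every RT 24h mouse lay above, as in 7.13% of all genes. At an unadjusted p under 0.05, 3 were higher and 1 lower, near the 9.39% and 2.03% of all genes. Xrcc5, the Ku80 subunit of end joining, had 17.9 to 23.7 TPM at 12 h and 21.9 to 30.5 TPM at 24 h, and Nbn, a part of the break sensor MRN, 6.39 to 7.51 against 7.86 to 9.95 TPM. Palb2, which brings Brca2 to breaks, was lower, at 2.69 to 3.54 TPM against 2.08 to 2.25 TPM.

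Targets of p53 had medians above control at both times and a small median difference between them. The median was 0.25 at 12 h and 0.33 at 24 h relative to control and 0.04 for 24 h against 12 h. At an unadjusted p under 0.05, 3 of 31 were higher and 2 lower, where 9.39% and 2.03% of all genes were. Cdkn1a, the p21 inhibitor of cyclin-dependent kinases, had 301, 298, 359 and 266 TPM at 12 h and 383, 319 and 343 TPM at 24 h, with control mice at 161 to 233 TPM. Mdm2, the ubiquitin ligase that p53 induces against itself, had 2018, 2432, 2137 and 2163 TPM at 12 h and 1544, 1932 and 1934 TPM at 24 h (log2 -0.28 ± 0.19 SE; exact permutation p = 0.0286). All 24 h mice lay below all 12 h mice, and control mice had 889 to 1777 TPM. Cdkn1a and Mdm2 were picked after their values had been seen. By the rule, Ephx1, an epoxide hydrolase, was 148 TPM ± 7.19 (SD, n = 4) at 12 h and 109 TPM ± 17.0 (SD, n = 3) at 24 h, Ckap2, a spindle protein, had 39.5 to 41.0 against 27.5 to 31.9 TPM, and Plk2, a stress kinase, 16.6 to 21.5 against 18.7 to 29.6 TPM.

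Genes of the circadian clock were mostly lower. Of 17 tested, 13 were lower with a median of -0.21, and 5 were lower and 1 higher at an unadjusted p under 0.05. The 5 became 2 with the muscle covariate and 3 with TPM as deposited, with only the compared groups or without RT 24h mouse 3, RT 12h mouse 2 or RT 12h mouse 4. Per2, a repressor of the clock, stood at 1.67, 2.28, 1.96 and 2.38 TPM at 12 h and at 0.95, 0.75 and 0.95 TPM at 24 h, 1.85-fold lower (log2 -0.89 ± 0.20 SE; adjusted p = 0.19, exact permutation p = 0.0286). No mouse of the control group (1.27 to 2.44 TPM) was as low as those at 24 h. Per3, a paralog of Per2, had 1.495 to 2.23 TPM at 12 h and 0.92 to 1.00 TPM at 24 h, and Ciart, a repressor named for its rhythm, 2.30 to 4.09 against 1.197 to 2.19 TPM. Dbp, an output gene of the clock, had 9.15, 10.9, 8.86 and 13.9 TPM at 12 h and 4.6, 11.6 and 5.81 TPM at 24 h, with RT 24h mouse 2 in the 12 h range, and Cry1 had 8.10 to 10.2 against 6.08 to 8.26 TPM. The activators Arntl and Clock had 12.7 to 20.2 against 13.7 to 14.1 TPM and 9.56 to 13.7 against 7.73 to 9.66 TPM. Nr1d1 lay at 13.4 to 26.3 against 16.5 to 28.1 TPM. Bhlhe40, Bhlhe41, Cry2, Nfil3, Nr1d2, Per1, Tef and Usp2 differed by -0.27 to 0.11 on the log2 scale. Hlf, Npas2 and Rora were below the filter. The labels give hours after RT and no time of day. Whether the 12 h and 24 h mice were killed at different times of day is not stated, so clock time and time after RT cannot be told apart here.

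The promoter of Ciart is shown for the E-box CACGTG, the site of the Clock and Arntl pair, which reads the same on both strands. The stretch is chr3:95882252-95882378 on build GRCm38.p6, minus strand, from 150 to 24 bases before the start site, with the E-boxes in capitals.
Ciart: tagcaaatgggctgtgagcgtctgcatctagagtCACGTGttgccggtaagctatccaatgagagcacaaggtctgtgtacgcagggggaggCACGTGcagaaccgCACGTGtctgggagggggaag
The 3 boxes start 116, 58 and 44 bases before the start site. Of 17 clock genes in the promoter table, 5 held the box within 250 upstream bases (29.4%), against 6.86% of all genes and 6.02% of all promoters.

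Glucocorticoid-induced genes, which follow a daily hormone rhythm and stress, were divided. Tsc22d3, the leucine zipper protein Gilz, had 28.1, 40.4, 38.9 and 36.1 TPM at 12 h and 23.8, 26.8 and 21.2 TPM at 24 h (log2 -0.57 ± 0.13 SE; adjusted p = 0.19), and Sgk1, a kinase of salt transport, 107 to 148 against 89.4 to 105 TPM. Both genes were lower without overlap. Angptl4, an inhibitor of lipoprotein lipase, was higher, at 21.5 to 40.0 TPM against 37.5 to 79.3 TPM. The list median was -0.06 over 15 genes, with 2 higher and 2 lower at an unadjusted p under 0.05.

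Most stress programs differed little, and genes of the integrated stress response were mostly lower. Of 24 tested, 20 were lower and 4 higher, at -1.02 to 0.11 on the log2 scale with a median of -0.21. Under the unadjusted threshold 1 was lower. Ddit3, the factor CHOP, had 73.6, 56.8, 24.5 and 49.0 TPM at 12 h and 21.9, 41.5 and 23.5 TPM at 24 h, and RT 12h mouse 3 had the lowest level of its group. Nrf2 targets had a median of 0.17, and Hmox1, heme oxygenase, was 36.1 TPM ± 3.19 (SD, n = 4) at 12 h and 49.2 TPM ± 3.10 (SD, n = 3) at 24 h (log2 0.44 ± 0.11 SE; adjusted p = 0.22). Gsr, glutathione reductase, had 54.9 to 70.4 against 82.1 to 89.4 TPM. Medians were 0.11 for 18 heat shock chaperones, 0.02 for 24 immediate early genes, -0.00 for 27 genes of hypoxia and glycolysis, 0.15 for 22 TGF-beta and matricellular genes and 0.16 for 15 prostaglandin and leukotriene genes. Junb, an AP-1 subunit, was higher without overlap, with 131 to 149 TPM at 12 h and 162 to 180 TPM at 24 h, as was Zfp36, which destabilizes cytokine mRNAs, with 24.6 to 27.5 against 33.2 to 38.5 TPM. Tbxas1, thromboxane synthase, had 2.60 to 5.99 against 6.73 to 10.8 TPM.

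The remaining genes chosen by smallest p among those without overlap belonged to no list. Htra1, a secreted serine protease, had 25.5 to 39.8 TPM at 12 h and 47.0 to 62.4 TPM at 24 h, Il2rg, the common gamma chain of cytokine receptors, 28.8 to 31.4 against 40.9 to 51.0 TPM, and Odc1, the entry enzyme of polyamine synthesis, 193 to 213 against 235 to 285 TPM. Ints7, an Integrator subunit, was higher by 0.45 on the log2 scale. Ppih, a cyclophilin of the spliceosome, had 367 to 447 TPM at 12 h and 247 to 311 TPM at 24 h, Cgref1, a secreted calcium-binding protein, 53.8 to 64.9 against 42.7 to 50.1 TPM, and Ap1s2, an adaptor of clathrin coats, 20.8 to 22.7 against 15.0 to 19.0 TPM. Lack of overlap was a condition for naming these 7 genes, so their separation is no result. The same holds for Cd209f, Ung, Troap and Parpbp above. Mmp3, Mrc1, Nusap1, Ube2c, Prc1, Per2 and Tsc22d3 are list members that also met this condition, so their separation adds no support. Of 10 epithelial tumor cell genes tested, 7 were higher and 3 lower, at -0.34 to 0.88 on the log2 scale with a median of 0.30, and 5 had an unadjusted p under 0.05. Krt18, the partner of Krt8, had 342 to 443 TPM at 12 h and 521 to 613 TPM at 24 h, and Cdh1, E-cadherin, 0.65 to 0.84 against 1.17 to 2.08 TPM, both picked after their values had been seen. Krt19, another keratin, had 138 to 331 against 123 to 249 TPM.

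Relative to control, the starting and end points differed in their calls. At 12 h 79 genes (0.515%) had an adjusted p under 0.05, 10 higher and 69 lower, and at 24 h 0 genes (0%) had, with 2573 and 951 genes at an unadjusted p under 0.05. The 12 h counts were 10 higher and 1163 lower with TPM as deposited, 15 and 7 after median-ratio scaling, 0 with the muscle covariate and at most 2 when any 1 RT 12h mouse was left out. At 24 h it was 0 under each of the 2 other scalings and 1 with the muscle covariate. Both comparisons share mice with the one between the times.

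MC-38 tumors over the same interval are the closest comparison, with 4 mice at each time. There 602 of 16289 genes (3.7%) passed the adjusted threshold in limma, 415 higher and 187 lower, and 3084 had an unadjusted p under 0.05. The counts were 218 and 46 with TPM as deposited, 570 and 294 after median-ratio scaling and 360 and 107 with the muscle covariate. Skeletal muscle markers were higher in 21 of 21 here too, with a median of 2.05 and 0 past the threshold, and their summed level was 47.9 to 897 TPM at 12 h and 62.9 to 7286 TPM at 24 h. Their part in the values that follow was not tested. Interferon-stimulated genes were higher in 39 of 40, with a median of 0.53 and 22 past the threshold. CC chemokines had a median of 1.13 with 8 past it, and the interleukin-1 family 0.87 with 6. Il1rn rose by 2.06 on the log2 scale, Ccl4 by 1.84 and Ifit3 by 1.19. The clock list had a median of -0.43, and Per2 fell by 1.19. Mitotic genes lay at 0.02, with 23 of 42 higher, where RM-9 tumors had 2 of 42.

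The difference between both tumors was tested by an interaction term over all 31 libraries. It passed for 27 of 16266 genes (0.166%), 5 with the higher change in MC-38 and 22 with the lower, and 1804 had an unadjusted p under 0.05. No interferon-stimulated, mitotic, replication or clock gene was among the 27. Nusap1, at -0.73 in RM-9 and 0.07 in MC-38, had an adjusted interaction p of 0.16 in limma. The linker histone H1f0 was 0.27 higher in RM-9 and fell by 0.85 in MC-38, with an adjusted interaction p of 0.0244 in the limma fit across all genes, and the histone Hist1h4i was 0.49 higher and fell by 0.60. Histone H4 genes encode 1 protein from many near-identical copies, so their reads may be shared. Ccdc124, a ribosome-binding protein, was higher by 0.23 in RM-9 and fell by 0.38 in MC-38. Ccdc23, a partner of vasohibin also called Svbp, was lower by 0.48 in RM-9 and rose by 0.43 in MC-38. The count of 27 became 0 with TPM as deposited, with only the 4 compared groups in the fit, and without RT 24h mouse 3 or RT 12h mouse 1, and 51 without RT 24h mouse 2.

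**Figure D5:**
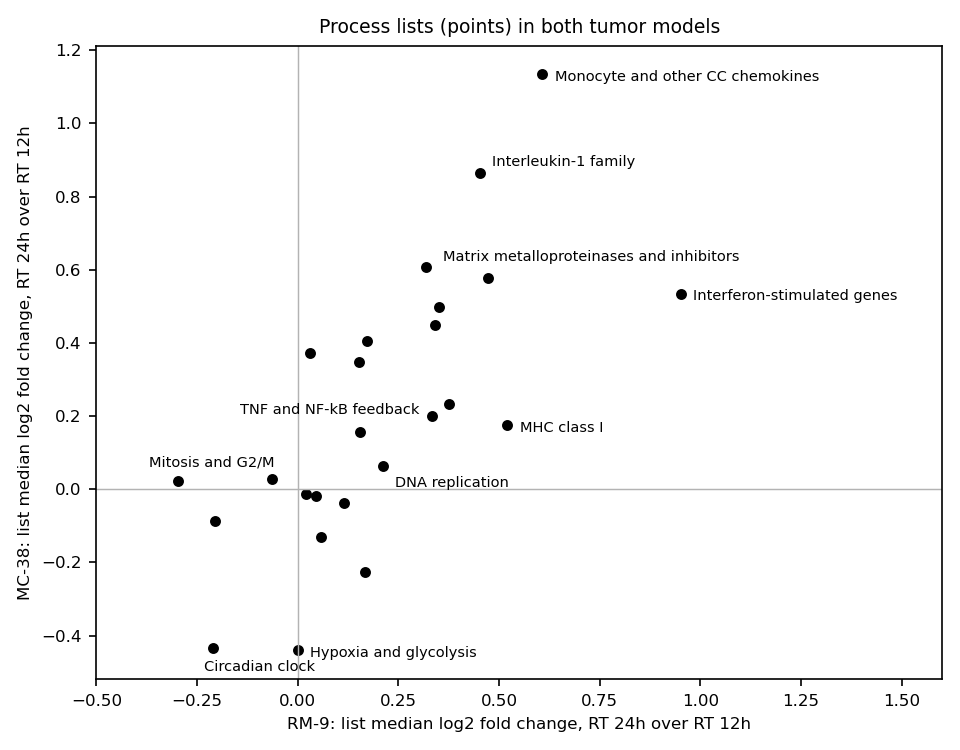
Median log2 fold change of TPM + 0.5, RT 24h over RT 12h, of 25 process lists in RM-9 (x axis) and MC-38 (y axis). Each point is 1 list, and grey lines mark 0. Interferon-stimulated genes (0.95 and 0.53) and CC chemokines (0.61 and 1.13) are higher in both, clock genes lower in both (-0.21 and -0.43), and mitotic genes lower in RM-9 (-0.30) and near 0 in MC-38 (0.02).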

How the data were processed

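For each of the 31 tumor libraries the authors deposited TPM, FPKM and coverage per gene. TPM, used here, is scaled within a library (deposited by the authors, single-end reads of 75 bases). FPKM and coverage, the authors' mean read depth per base, served to compute depth. The files hold no counts, so no counting error is attached to a gene. The submitters' processing notes name bcl2fastq 2.17 and GRCm39, but of the Ensembl identifiers shared with GENCODE M21 (GRCm38) the chromosome matched in 100% and a gene end in 91.1%, so GRCm38 is used. The aligner and the counting program are not given in the sources used here, nor is a strand setting.

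TPM was summed per gene and rescaled without mitochondrially encoded genes. Log2(TPM + 0.5) was fitted with limma 3.58.1 (R 4.3.3; lmFit, eBayes with trend) over the 15 RM-9 mice in 4 groups, for genes with a mean of at least 0.5 TPM. Adjusted p-values are Benjamini-Hochberg over all genes tested, with a threshold of 0.05, and "unadjusted p" is limma's. Exact permutation tests were two-sided over 35 assignments of the 7 mice, with a smallest p of 0.0286. The fit was tested on simulated data. Lists, members and tests were chosen with earlier results of these data known.

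Named genes were the 10 with the smallest p in each direction among those without overlap, with a mean of at least 1 TPM and a gene name (2 and 3 unnamed ones were passed over), the 3 with the smallest p in each process list, the Cxcr2 ligands, Cxcr2 and Il1b, the clock list, the 5 with the smallest interaction p and the 3 most abundant markers of each cell type. Values of a few genes that these rules name are not reported here. Others are said to be picked after their values had been seen. Each mouse was a separate animal. Same-numbered mice did not pair.

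Alternatives were TPM as deposited, median-ratio scaling, pseudocounts of 0.1 and 1, no filter or a mean of at least 5 TPM, only the compared groups, eBayes without trend, a replicate block and each of the 7 mice left out. Scaling without 5 chromosome 1 copies of mitochondrial genes and the muscle covariate were added after the data had been seen. Python 3.11.15, pandas 2.3.3 and matplotlib 3.10.9 made the summaries and plots.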

Additional observations from a re-analysis of the deposited data

Results flagged for a closer look

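Dixon's ratio at the 95% level flags about 1 in 20 sets of independent, normally distributed values. TPM of genes that vary together are not such values, so the count is not read against that rate. In 13 of 153 sets of 4 RT 12h values, 1 mouse stood apart by this ratio. In 9 of these it was RT 12h mouse 3, at 745.5 TPM of Acta1 (others 0.469 to 57.8), 302.4 TPM of Ckm (0 to 26.5), 429.0 TPM of Tnnt3 (3.67 to 42.0), 49.44 TPM of Car3 (0 to 3.41), 23.99 TPM of Ifit3 (7.91 to 9.82), 2.371 TPM of Ptx3 (0.244 to 0.538), 18.45 TPM of Mrc1 (15.2 to 15.7), 33.54 TPM of Tgfbr2 (26.3 to 27.4) and 9.247 TPM of Traf1 (6.60 to 6.92). The first 4 are muscle or fat transcripts, and the 5 others lay toward the 24 h values in this mouse. RT 12h mouse 1 stood apart with 18.61 TPM of Flt1 (25.4 to 26.7), 1.195 TPM of Ptger4 (0.661 to 0.712) and 4.048 TPM of Trac (2.09 to 2.30), and RT 12h mouse 2 with 8.755 TPM of Cxcl1 (2.36 to 2.97).

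The change from 12 h to 24 h differed between the tumor models in 4 named genes by limma's interaction term. The log2 change of MC-38 less the RM-9 one was -1.119 for H1f0 (adjusted p = 0.0244), -1.094 for Hist1h4i, -0.6096 for Ccdc124 and 0.9074 for Ccdc23 (adjusted p = 0.0247 for each of the last 3). Negative values mean the lower change in MC-38.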

How the results depend on the processing

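In limma, 0 genes passed the adjusted threshold between 12 h and 24 h under 10 of the 11 alternatives that kept all 7 mice. Without the filter on low values, 3 genes were higher (Hormad2, Fcgbp and Gm7609, picked after their values had been seen). Leaving out 1 mouse gave 0 to 39 higher and 0 to 6 lower genes. The 39 and 6 came without RT 24h mouse 2 and included Cd209f, Il1rn, Mmp3, Odc1, Plau and Ube2c, and without RT 12h mouse 3 Ptx3 was the 1 call. At an unadjusted p under 0.05, the higher genes numbered 2563 with TPM as deposited, 919 after median-ratio scaling and 699 with the muscle covariate, and 801 to 1827 with 1 mouse left out (801 without RT 24h mouse 3). The lower genes numbered 75, 686 and 193 in the same order, 511 without the chromosome 1 copies, 472 without the filter and 165 to 433 with 1 mouse left out (165 without RT 24h mouse 1). The count for the difference between tumor models was 0 with TPM as deposited and with only the compared groups, 43 without the filter, 44 with the replicate block, 16 without trend, 46 with the muscle covariate and 0 to 51 with 1 mouse left out, 0 without RT 12h mouse 1 or RT 24h mouse 3, 8 and 9 without RT 12h mice 2 and 4 and 51 without RT 24h mouse 2. The cause of these shifts was not tested. The all-gene median was 0.15 with TPM as deposited.

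Of 150 named genes tested, 131 kept their direction in all 18 alternatives, and the other 19 had log2 differences that changed sign. With TPM as deposited the reversed values were 0.11 for Bhlhe40, 0.099 for Col3a1, 0.096 for Egfl7, 0.013 for Hras, 0.026 for Selp, 0.026 for Thy1 and 0.0042 for Xbp1, after median-ratio scaling -0.0080 for Cxcl5 and -0.017 for Nr1d2, with the replicate block 0.062 for Col3a1, -0.015 for Cxcl5, 0.032 for Egfl7 and 0.010 for Thy1, and with the muscle covariate 0.083 for Bhlhe40, -0.95 for Car3, 0.21 for Col3a1, -0.24 for Hba-a2, 0.067 for Hras, -0.023 for Il1r2, 0.22 for Thy1 and -0.20 for Usp2. With 1 mouse left out the ranges were -0.18 to 0.22 for Bhlhe40, -0.0060 to 0.35 for Col1a1, -0.098 to 0.12 for Col3a1, -0.28 to 0.30 for Cxcl1, -0.27 to 0.40 for Cxcl5, -0.050 to 0.26 for Dcn, -0.25 to 0.17 for Egfl7, -0.027 to 0.50 for Gzmb, -0.29 to 0.69 for Hba-a2, -0.61 to 0.33 for Hbb-bs, -0.28 to 0.11 for Hras, -0.066 to 1.01 for Ighm, -0.089 to 0.58 for Il1r2, -0.019 to 0.12 for Nr1d2, -0.21 to 0.013 for Selp, -0.23 to 0.14 for Thy1 and -0.12 to 0.43 for Usp2.

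Each mouse's deviations from its group mean were correlated over all genes tested. Same-numbered mice at 12 h and 24 h had correlations of these deviations of -0.10, 0.057 and -0.090, so the numbers do not pair them. With the replicate block 0 genes passed the adjusted threshold and 1414 were higher and 263 lower at an unadjusted p under 0.05. Groups of 3 and 4 mice, no time-matched controls and unequal muscle RNA limit what the comparison can show.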
